A study of Homo sapiens with 4 samples.

Results

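Ferroptosis is an iron-dependent form of cell death in which phospholipids are oxidised, and cells hold it off with enzymes that reduce lipid peroxides and with tight storage of iron. The 8 genes described here are GPX4, TXNRD1 and KEAP1 on the redox side, TFRC, FTH1, NCOA4 and ATG5 on the iron side, and SCD for lipid composition. They were chosen by name, with earlier results of the same comparison known, so their differences below are a description and carry no test. Every row of the deposited peak table with one of these gene names was taken, which gave 8 of 8871 peaks over 7 genes. KEAP1 had a pair of peaks and FTH1 had no row of its own name.

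The study profiled binding of ZHX2, a transcription factor with zinc fingers and homeodomains, by chromatin immunoprecipitation and sequencing (ChIP-seq) in the DB cell line, which was established from a human diffuse large B-cell lymphoma. It compared cells labelled ZHX2 with cells labelled Mut4, and asked which sites might be regulated differently between them. Cells of both arms were fixed with 1% formaldehyde for 10 minutes and precipitated with the same ZHX2 antibody, with 1 ChIP and 1 input library each. The labels describe neither the altered residues of Mut4, nor how either form was expressed, nor whether endogenous ZHX2 remained for the antibody to bind. Whether each line came from 1 clone is not given either. The inputs were not used here. The table holds binding and no expression, so the cell type label could not be checked by marker genes.

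The deposited table gives each peak a log2 fold and a mean log2 CPM (reads scaled to a fixed library total) made by the authors, from which whole read numbers were recovered for both ChIP libraries. Reads in the listed peaks summed to 541900 for ZHX2 and 271694 for Mut4, and under the authors' scaling the ZHX2 library counted as 2.14 times the Mut4 library. A scaled fold is the ZHX2 to Mut4 ratio of reads divided by that number. Its exact 95% interval covers counting error only. With 1 library per arm there is no replicate error, so no difference below was tested between the conditions.

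GPX4 is the selenoenzyme that reduces lipid peroxides inside membranes. TXNRD1, also a selenoenzyme, keeps thioredoxin reduced, and KEAP1 is the adaptor that hands the antioxidant transcription factor NRF2 over for degradation. TFRC imports transferrin-bound iron, FTH1 is the heavy chain of the ferritin shell that stores it, and NCOA4 is the receptor that carries ferritin to autophagosomes, whose formation needs ATG5. SCD makes monounsaturated fatty acids, which are poor substrates for peroxidation.

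In these libraries the peak at the KEAP1 promoter held the most reads of the 8 and was 1.55-fold higher in ZHX2 (1.19 to 2.04). The peaks of TXNRD1, NCOA4 and ATG5 were lower in ZHX2, by 1.93-fold (1.36 to 2.75), 1.96-fold (1.05 to 3.66) and 2.39-fold (1.36 to 4.22), under the authors' scaling. The intervals at GPX4, TFRC, SCD and the upstream KEAP1 peak included 1. Over all listed peaks the interval lay above 1 at 11.0% and below 1 at 11.0%, against 1 and 3 of the 8 here. These genes were picked from this same contrast, so nothing is read from that difference in share. By sign 2 of the 8 peaks were higher and 6 lower in ZHX2, against 50.4% and 49.6% of all peaks. By the authors' deposited table, 5.95% of all peaks fell under an adjusted p of 0.05, and 0 of these 8 did. Those p-values compare the pair of libraries, not the conditions.

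**Figure D1:**
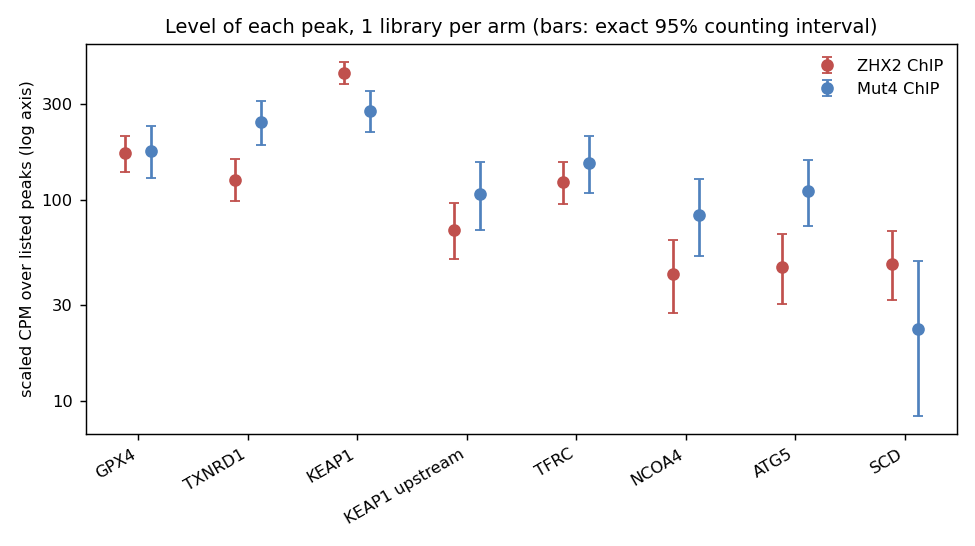
Level of each of the 8 peaks in the ZHX2 (red) and Mut4 (blue) ChIP libraries, as scaled CPM over listed peaks on a log axis. Bars are exact 95% counting intervals of 1 library; the KEAP1 promoter peak is highest in both arms, and at TXNRD1 the Mut4 library stands at 244 against 126.

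All 8 peaks were marked by the authors as unique to ZHX2, as were 95.5% of the listed peaks. Every one of the 8 held reads in Mut4, from 6 at SCD to 73 at the KEAP1 promoter. So did all but 17 of the 8871 listed peaks, so nothing about these genes in particular is read from that. The TXNRD1 peak had 64 Mut4 reads, a number reached by 3.93% of the ZHX2-only peaks and by 44.9% of the 185 peaks marked as common to both arms. The median common peak held 61 Mut4 reads. The TXNRD1 and KEAP1 promoter peaks thus held more Mut4 reads than the median common peak, although marked as unique. Both are also longer, at 2208 and 1945 bp against a median of 1260 bp for common peaks. Reads here are totals per peak, not corrected for length. Per kb the TXNRD1 and KEAP1 promoter peaks held 29.0 and 37.5 Mut4 reads. No value per kb is given for common peaks, so the comparison with them holds for totals only and may not hold per kb.

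The peaks sat close to the starts of their genes. By the authors' annotation 7 of the 8 centres lay within 500 bp of a transcription start, against 66.9% of annotated peaks, and 4 carried the promoter class (56.6% of all listed peaks), 3 the intron class and 1 the intergenic class. Set against RefSeq starts on GRCh38, 6 of the 7 genes had a start inside a peak. The exception was NCOA4, whose peak began 67 bp and ended 658 bp downstream of the nearest start. Positions are printed as deposited, on hg38. No source states whether the first base of a chromosome is numbered 0 or 1, so distances are good to 1 bp.

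**Figure D2:**
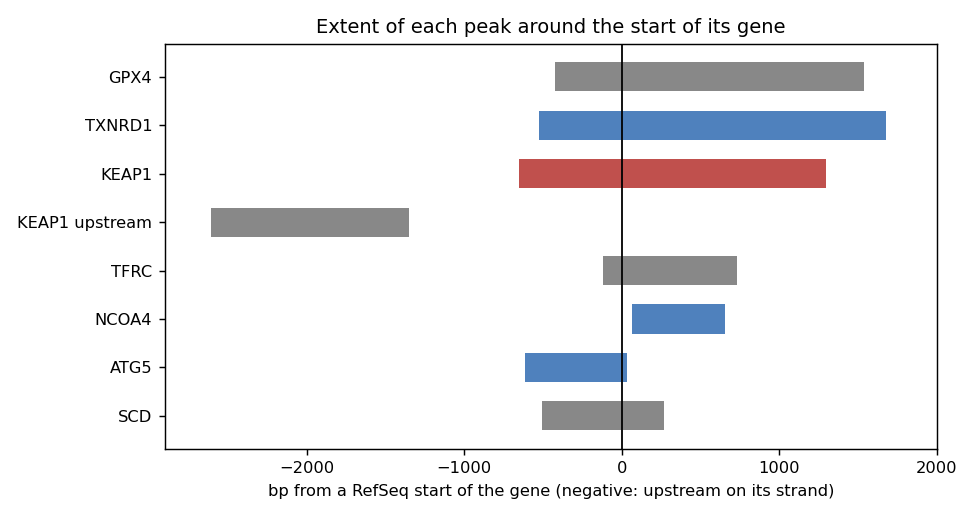
Extent of each peak in bp from a RefSeq start of its gene (the most upstream start inside a peak, or the nearest start for NCOA4), with negative values upstream. Red marks a counting interval above 1, blue below 1 and grey one that includes 1; the ATG5 peak ends 33 bp past the start and the NCOA4 peak begins 67 bp past it.

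Reference promoter sequence was at hand for 7 of the 8 genes, as windows from 250 bases before to 50 after each RefSeq start on GRCh38.p14. Of 13 windows 9 overlapped the peak of their gene. Windows are shown for TXNRD1, KEAP1 and ATG5, where the arms differed beyond counting error at a peak that covers a start, together with SCD and GPX4 for contrast. NCOA4 also differed, but 0 bases of its windows lie in its peak, so none is shown. Each is printed on the strand of its gene. Capitals mark matches on either strand to CCAAT, the box bound by NF-Y, a factor that ZHX proteins were found to contact. They also mark GGGCGG, the box bound by SP1, and TGACNNNGC, the core of the antioxidant response element bound by NRF2. The other motifs searched, CACGTG and TATAAA, have no match in these 5 windows, and no matches overlap in them.
TXNRD1, chr12:104286782-104287081, plus strand: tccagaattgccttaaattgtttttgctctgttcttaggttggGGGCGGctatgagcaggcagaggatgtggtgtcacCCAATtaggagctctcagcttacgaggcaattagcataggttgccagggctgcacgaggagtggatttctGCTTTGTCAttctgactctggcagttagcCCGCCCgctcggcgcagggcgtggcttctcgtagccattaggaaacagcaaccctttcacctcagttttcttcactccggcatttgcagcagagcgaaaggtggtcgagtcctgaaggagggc
KEAP1, chr19:10503307-10503606, minus strand: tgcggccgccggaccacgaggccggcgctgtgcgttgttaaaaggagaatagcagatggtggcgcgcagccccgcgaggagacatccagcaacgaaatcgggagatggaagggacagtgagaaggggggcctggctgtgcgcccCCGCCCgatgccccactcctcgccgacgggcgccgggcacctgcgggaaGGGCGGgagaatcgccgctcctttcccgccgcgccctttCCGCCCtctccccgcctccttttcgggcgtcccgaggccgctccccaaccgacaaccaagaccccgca
ATG5, chr6:106325388-106325687, minus strand: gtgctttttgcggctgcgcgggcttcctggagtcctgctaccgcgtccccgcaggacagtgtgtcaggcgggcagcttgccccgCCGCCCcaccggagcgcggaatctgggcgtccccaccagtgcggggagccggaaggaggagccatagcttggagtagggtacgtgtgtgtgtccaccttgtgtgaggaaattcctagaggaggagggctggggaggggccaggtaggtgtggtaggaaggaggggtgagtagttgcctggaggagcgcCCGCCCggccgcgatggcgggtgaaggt
SCD, chr10:100346983-100347282, plus strand: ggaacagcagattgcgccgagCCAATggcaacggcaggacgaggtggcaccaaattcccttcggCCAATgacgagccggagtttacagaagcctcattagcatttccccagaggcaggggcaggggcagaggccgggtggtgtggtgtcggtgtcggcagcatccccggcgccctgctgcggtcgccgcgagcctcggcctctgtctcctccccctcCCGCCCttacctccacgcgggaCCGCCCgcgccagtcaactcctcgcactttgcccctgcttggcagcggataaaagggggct
GPX4, chr19:1103744-1104043, plus strand: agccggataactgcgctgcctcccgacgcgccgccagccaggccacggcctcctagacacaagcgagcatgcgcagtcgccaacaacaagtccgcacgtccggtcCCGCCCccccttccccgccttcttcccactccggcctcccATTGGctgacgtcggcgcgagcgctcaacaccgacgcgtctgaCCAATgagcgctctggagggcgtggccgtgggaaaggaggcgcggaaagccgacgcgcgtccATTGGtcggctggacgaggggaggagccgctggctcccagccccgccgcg

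GGGCGG was found in 9 of the 9 windows under these peaks, beside 76.0% of the 7396 windows under any listed peak and 45.0% of all 35116 windows. CCAAT was found in 4 of 9 (31.8% and 34.6%), with 3 matches in the GPX4 window, 2 in that of SCD and 1 in that of TXNRD1, and none in those of KEAP1, ATG5 and TFRC. TGACNNNGC was found in 2 of 9 (15.9% and 13.4%). It began 102 bp before the printed TXNRD1 start, and matched at 54 and 31 bp before the other KEAP1 start, at chr19:10502771, which the same peak covers. CACGTG was found in 0 of 9 (10.3% and 7.26%) and TATAAA in 1 of 9 (4.27% and 11.5%), at TFRC. The 9 windows are not independent, since 2 of the 3 at GPX4 overlap. GC content over the 9 windows ran from 53.7% at TXNRD1 to 79.0% at GPX4, around a median of 68.0% for windows under listed peaks. A match is a match of letters and says nothing of occupancy.

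At GPX4 (ENSG00000167468) the arms held the same share of reads within counting error under the authors' scaling. Its promoter peak on chromosome 19, 1103571 to 1105532, covered all 3 RefSeq starts of the gene, with 96 ZHX2 reads and 46 Mut4 reads. The scaled levels were 171 CPM (139 to 209) and 175 CPM (128 to 234), and the fold was 0.975 (0.679 to 1.42). By mean signal it stood at percentile 88.3 of all listed peaks, so this was a well filled peak with a fold near 1. The locus is dense in peaks, with 9 others within 50000 bp of its starts. Of these the one at the end of SBNO2 was higher, at 1.91 (1.30 to 2.89), and the ABCA7 promoter peak lower, at 0.666 (0.475 to 0.940).

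At TXNRD1 (ENSG00000198431) the peak on chromosome 12, 104286505 to 104288713, was the longest of the 8 at 2208 bp. The ZHX2 library gave it 71 reads and the Mut4 library 64, or 126 CPM (98.8 to 159.5) and 244 CPM (188 to 312). These intervals did not overlap, and the fold was 0.518 (0.364 to 0.738). The authors' deposited table lists it with a log2 fold of -0.95 and an adjusted p of 0.0746. The fold stood at percentile 5.99 of all listed peaks, while the signal stood at percentile 89.4 and the length at percentile 94.4. The peak lay over the inner of a pair of RefSeq starts, in an intron of the longer transcripts. The outer start, 70726 bp upstream of the peak, had no listed peak within 50000 bp.

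At KEAP1 (ENSG00000079999) the folds of the pair of peaks on chromosome 19 differed from each other beyond counting error. The promoter peak, 10502061 to 10504006, covered both RefSeq starts, with 242 ZHX2 reads and 73 Mut4 reads, or 431 CPM (378 to 489) and 278 CPM (218 to 350). The adjacent peak, 697 bp further upstream at 10504703 to 10505966 and classed as intergenic, held 40 and 28 reads, or 71.2 CPM (50.9 to 97.0) and 107 CPM (71.0 to 154). Its fold was 0.667 (0.402 to 1.12), against 1.55 at the promoter. The ratio of the 2 folds was 2.32 (1.28 to 4.15), in which any constant scaling of the libraries cancels. Centred within deciles of signal it was 2.08 (1.15 to 3.73). Both intervals cover counting error only, and no ratio of folds is given with added dispersion. Of 183 pairs of consecutive listed peaks with a gap of at most 1000 bp, 34 (18.6%) had a ratio whose interval excluded 1. The promoter peak stood at percentile 98.3 of signal and 82.6 of fold over all listed peaks. The authors' deposited table lists it with a log2 fold of 0.63 and an adjusted p of 0.221.

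TFRC (ENSG00000072274), on the import side of iron handling, showed no difference beyond counting error under the authors' scaling. Its peak on chromosome 3, 196081360 to 196082208, ran from 118 bp upstream to 730 bp downstream of the start. Its reads numbered 69 in the ZHX2 library and 40 in the Mut4 library, or 123 CPM (95.6 to 156) and 153 CPM (109 to 208), and the fold was 0.806 (0.538 to 1.22).

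FTH1 had no row of its name, but its locus was not empty. The gene spans 61964285 to 61967634 on chromosome 11 in RefSeq and is read from the minus strand. A promoter-class peak at 61966930 to 61968752 covered its upper end, where transcription of FTH1 begins, and was named by the authors' annotation to AP003733.3. That peak had 121 ZHX2 reads and 53 Mut4 reads, with a fold of 1.07 (0.766 to 1.50). Its centre lay 207 bp from that end of FTH1, so FTH1 has no row by name although a listed peak covers its start. The next peak within 50000 bp, at the BEST1 promoter, held 23 and 8 reads, with a fold of 1.34 (0.580 to 3.47).

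NCOA4 and ATG5, which act in the release of iron from ferritin, were both lower in ZHX2 under the authors' scaling. The NCOA4 peak (ENSG00000266412) on chromosome 10, 46029965 to 46030556, was the shortest of the 8 at 591 bp, with 24 ZHX2 reads and 22 Mut4 reads. Its levels were 42.7 CPM (27.4 to 63.6) and 83.9 CPM (52.6 to 127), intervals that overlapped, and its fold was 0.509 (0.274 to 0.953). Copies named NCOA4P1 to NCOA4P4 are annotated elsewhere as pseudogenes, and 0 listed peaks carried their names. The ATG5 peak (ENSG00000057663) on chromosome 6, 106325404 to 106326051, was the one peak of the 8 where unscaled Mut4 reads outnumbered ZHX2 reads, 29 against 26. Its levels were 46.3 CPM (30.3 to 67.9) and 111 CPM (74.1 to 159) and did not overlap, and its fold was 0.419 (0.237 to 0.737). Among the 5025 promoter-class peaks that fold stood at percentile 1.35. The authors' deposited table lists ATG5 with an adjusted p of 0.0802 and NCOA4 with 0.343. No other listed peak lay within 50000 bp of the NCOA4 starts, and 1 did near those of ATG5, in CRYBG1, with a fold of 1.09 (0.478 to 2.70).

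SCD (ENSG00000099194) had the largest fold in favour of ZHX2 and the fewest reads behind it. Its promoter peak on chromosome 10, 100346728 to 100347501, had 27 ZHX2 reads and 6 Mut4 reads, or 48.1 CPM (31.7 to 70.0) and 22.9 CPM (8.40 to 49.8). Under the authors' scaling the fold was 2.10 (0.850 to 6.22), which spans a small decrease and a large increase. The interval also included 1 when centred within deciles of signal, at 1.65 (0.668 to 4.89). It lay above 1 unscaled, at 4.50 (1.82 to 13.3), and scaled to contig peaks, at 4.08 (1.65 to 12.1). Without the strongest contig peak it was 3.06 (1.24 to 9.06). By signal it stood at percentile 7.67 of all listed peaks.

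**Figure D3:**
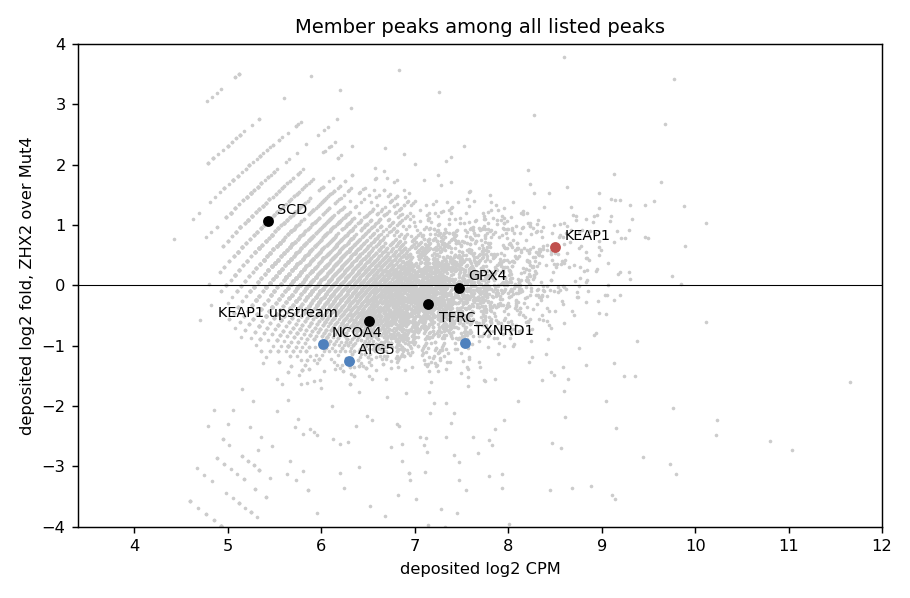
Deposited log2 fold (ZHX2 over Mut4) against deposited log2 CPM for the listed peaks (grey), with the 8 peaks labelled; peaks outside the axes number 72. Red and blue mark counting intervals above and below 1 and black those that include 1; KEAP1 lies far to the right at a log2 CPM of 8.505, and SCD far to the left at 5.424.

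In order of fold the peaks ran SCD, KEAP1 promoter, GPX4, TFRC, KEAP1 upstream, TXNRD1, NCOA4 and ATG5. For none of the 7 neighbouring pairs in that order did the ratio of folds exclude 1. It excluded 1 in 11 of all 28 pairs, with intervals for counting error only, not adjusted for their number. A scaling by 1 constant per library cancels in such ratios. Centring within deciles of signal does not cancel, and with it 11 of the 28 also excluded 1, with SCD against the upstream KEAP1 peak lost and GPX4 against NCOA4 gained. Under the authors' scaling the KEAP1 promoter fold was 2.98 times that of TXNRD1 (1.90 to 4.68), 3.03 times that of NCOA4 (1.52 to 6.01) and 3.68 times that of ATG5 (1.96 to 6.97). The GPX4 fold was 1.88 times that of TXNRD1 (1.12 to 3.16). The ratio between TXNRD1 and NCOA4 was 1.02 (0.491 to 2.10), which leaves room for a difference of about the size of either fold.

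The single folds did depend on the scaling. Over 6 scalings, 5 of the 8 peaks had a fold on both sides of 1, while the KEAP1 promoter and SCD stayed above it and ATG5 below it. With reads left unscaled, which raises every log2 fold by 1.10 and keeps any difference in depth, 7 of the 8 peaks had more reads in ZHX2, against 95.5% of all peaks. All 8, like 95.5% of the listed peaks, were marked as unique to ZHX2. Listing thus favoured peaks with ZHX2 signal, so neither share measures a difference between the arms. The same selection bears on the KEAP1 promoter and SCD folds that stayed above 1. The unscaled interval lay above 1 at 4 of 8 (GPX4, the KEAP1 promoter, TFRC and SCD), against 71.1% of all peaks. TXNRD1, NCOA4 and ATG5 then stood at 1.11 (0.780 to 1.58), 1.09 (0.586 to 2.04) and 0.897 (0.507 to 1.58), so these 3 were lower in ZHX2 only relative to the bulk of peaks. Scaled to the 51 ZHX2-marked peaks on contigs outside the main chromosomes, they stood at 1.01, 0.990 and 0.814, with intervals that included 1. GPX4 and TFRC were above 1 under that scaling, at 1.89 (1.32 to 2.75) and 1.565 (1.045 to 2.372), as were the KEAP1 promoter and SCD. The KEAP1 promoter peak was above 1 beyond counting error under all 6 scalings tried, from 1.46 (1.12 to 1.92) when centred within deciles of signal to 3.32 (2.54 to 4.37) unscaled.

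**Figure D4:**
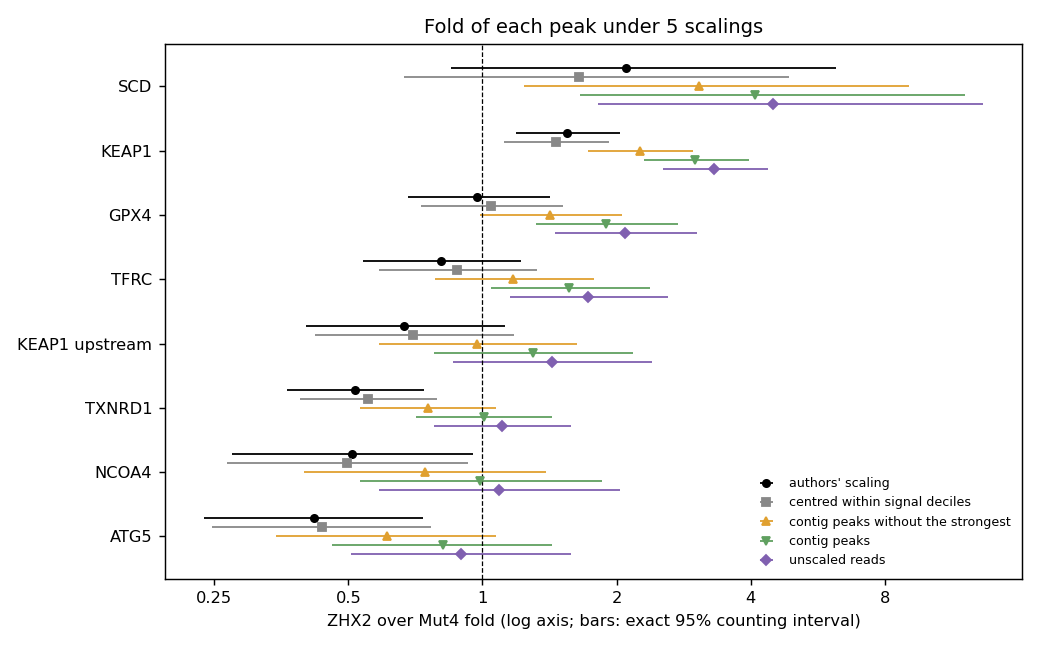
ZHX2 over Mut4 fold of each peak on a log axis under 5 of the scalings, with exact 95% counting intervals as bars and a dashed line at 1. The KEAP1 promoter stays right of the line throughout, while TXNRD1, NCOA4 and ATG5 move from left of it under the authors' scaling to near 1 with unscaled reads.

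The wider pathways were described with 8 lists of other redox, iron, autophagy and lipid genes, none of them among the 8 genes above. Of 185 listed genes 88 had a peak, 99 peaks in all, and all 99 were marked as unique to ZHX2. By an unlike count, 6014 of 27305 genes (22.0%) had a promoter window overlapping a listed peak. Nothing is read from the number of list genes with a peak. The counting interval lay above 1 at 6 peaks (6.06%) and below 1 at 8 (8.08%), beside 11.0% over all listed peaks in each direction. Those shares are not alike in make-up. All listed peaks include 210 marked Mut4-only, all with negative folds, and 185 common ones with a median log2 fold of -0.32. The share within ZHX2-only peaks is not given, so nothing is read from the difference. The median deposited log2 fold of the 99 was -0.12, against 0.005 over all listed peaks and 0.027 over those marked ZHX2-only.

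Around the redox members, 0 of 10 peaks of the thioredoxin and peroxiredoxin list had an interval off 1, and their median log2 fold was -0.19. They ran from PRDX1, a peroxide-reducing peroxiredoxin, at a fold of 0.616 (0.356 to 1.08), to the glutaredoxin gene GLRX3 at 1.83 (0.982 to 3.67). The other GLRX3 peak, classed as intergenic, had a fold of 1.012. Of 9 peaks for glutathione synthesis and peroxidases 1 was lower and 0 higher (median log2 fold -0.17). The lower one was a promoter peak of SLC3A2, the heavy chain of the cystine importer, at 0.478 (0.305 to 0.750), and the other SLC3A2 peaks had folds of 0.887 and 1.02. The highest was GPX7 at 1.57 (0.785 to 3.41). Selenoprotein synthesis, which GPX4 and TXNRD1 both need, had 7 peaks with 0 off 1 (median 0.11), from TRNAU1AP at 0.672 (0.444 to 1.03) to SELENOT at 1.52 (0.779 to 3.18).

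The KEAP1 and NRF2 list had 12 peaks, with 3 lower and 0 higher and a median log2 fold of 0.10. The 3 were an intronic peak of MAFK, a small MAF partner of NRF2, with 30 and 28 reads and a fold of 0.500 (0.289 to 0.869), PALB2 at 0.560 (0.319 to 0.994) and RBX1, the RING subunit of the ligase that KEAP1 serves, at 0.642 (0.420 to 0.990). At CUL3, the scaffold of that ligase, the fold was 1.31 (0.617 to 3.02). The other MAFK peak, with 50 and 23 reads, had a fold of 1.015 (0.6081 to 1.743). SQSTM1, an autophagy receptor that binds KEAP1, had the highest, at 2.52 (0.957 to 8.39).

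Around the iron members, 2 of 14 peaks for iron uptake, storage, export and iron-sulphur clusters were higher and 0 lower (median log2 fold -0.14). The ferrochelatase gene FECH stood at 3.64 (1.44 to 11.8) with 39 and 5 reads, and SLC25A37, a mitochondrial iron importer, at 1.71 (1.07 to 2.84) with 84 and 23. FTL, the light chain partner of FTH1 in ferritin, had the lowest, at 0.679 (0.427 to 1.09). Of 16 autophagosome and ferritinophagy peaks 1 was higher and 1 lower (median -0.16). Both belong to the ATG8 family that NCOA4 cargo meets on the autophagosome. MAP1LC3A had 251 and 31 reads, a fold of 3.78 (2.60 to 5.68) and, in the authors' deposited table, the one adjusted p under 0.05 among the 99 peaks, 3.06e-07. GABARAP stood at 0.577 (0.358 to 0.935), on 42 and 34 reads.

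Around SCD, 2 of 20 peaks of the lipid list were higher and 3 lower (median log2 fold 0.13). Among desaturase genes, the FADS2 promoter peak, 61827245 to 61829337 on chromosome 11, was lower at 0.649 (0.466 to 0.910). An intron-class peak named to FADS1 by the authors' annotation was lower at 0.467 (0.269 to 0.810). That peak, 61834396 to 61835106, lay beyond the FADS2 promoter peak as seen from the FADS1 promoter peak, 61816214 to 61817528. It is therefore not read as a difference at FADS1. The FADS1 promoter peak stood at 1.20 (0.713 to 2.09). FAR1, of ether lipid synthesis, was lower at 0.616 (0.415 to 0.920), and CYB5R3 was higher at 2.06 (1.16 to 3.88). The other higher peak, an intronic one of ELOVL5 with 190 and 58 reads, stood at 1.53 (1.135 to 2.09). An ALOX5 peak at a transcript end had the highest fold, 2.07 (0.894 to 5.56), while the other ALOX5 peaks stood at 1.03 (0.652 to 1.68) and 1.23 (0.522 to 3.20). Of 11 peaks of ubiquinone synthesis and other radical traps 1 was higher and 0 lower (median -0.16). VKORC1L1, a vitamin K reductase, stood at 2.34 (1.28 to 4.62), and COQ8A, of ubiquinone synthesis, had the lowest fold at 0.690 (0.395 to 1.23).

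**Figure D5:**
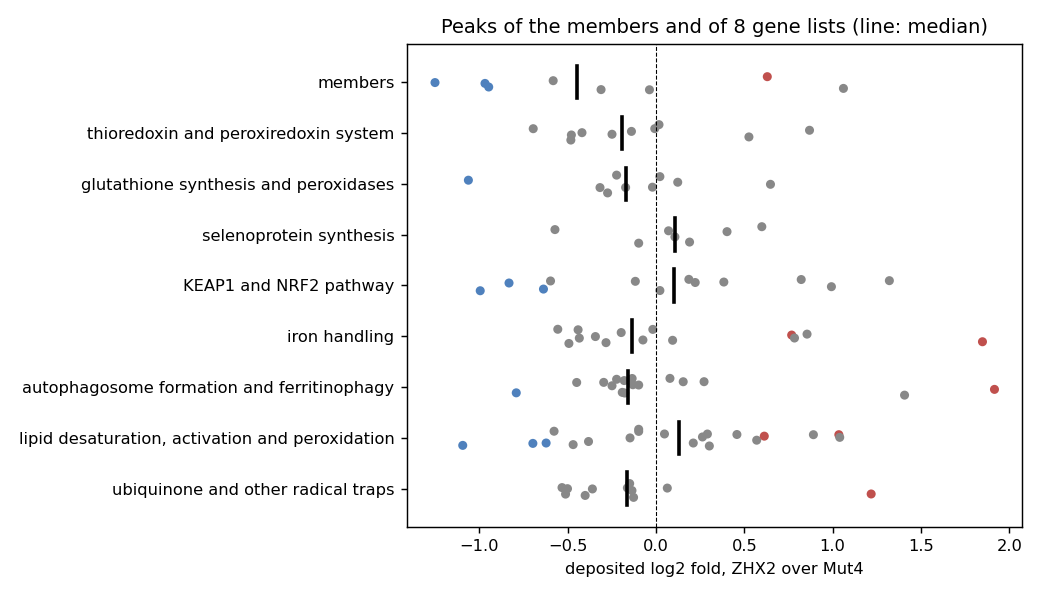
Deposited log2 fold of the 8 member peaks and of the 99 peaks of 8 gene lists, 1 point per peak with the median as a line; vertical scatter within a row has no meaning. Red and blue mark counting intervals above and below 1; MAP1LC3A and FECH lie furthest right, at 1.916 and 1.848.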

How the data were processed

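Labels placed 1 ChIP and 1 input library in each arm (4 libraries). The submitters' processing notes name hg38, HOMER, MACS2 2.2.6, deepTools 3.4.3, Picard 2.22.2-0, BWA 0.7.17 and Trim Galore 0.6.4. The role of each, and the tool behind the comparison, is not stated there. Per the file headers, the authors' table gives log2 fold changes, log2 CPM, p-values and adjusted p-values for 8871 peaks. A positive fold means more signal in ZHX2, since all 210 Mut4-only peaks are negative.

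The deposited log2 folds and log2 CPM values gave back whole reads at 8871 of 8871 peaks, within 1e-09 (prior of 0.25 reads in the fold, prior of 2 and dispersion of 0.05 in the CPM), after the recovery had been tested on simulated data. Library sizes behind the CPM were the recovered totals times 1.04 and 0.965; depth outside listed peaks is unknown. Intervals are Clopper-Pearson for folds, exact Poisson for CPM and exact conditional for ratios of folds (Python 3.11.15, scipy 1.17.1). They cover counting error only, and PCR copies of a fragment were not told apart by molecular identifiers.

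The design had planned no count test, and none was run, with 1 library per arm. Members and lists were chosen with earlier results of these data known. Named were all members and, from each list, up to 4 genes with an interval off 1 and the highest and lowest fold. CUL3, ELOVL5 and the further SLC3A2, FADS1, GLRX3, MAFK and ALOX5 peaks were named after their values were seen. Sequences are from RefSeq (GRCh38.p14).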

Additional observations from a re-analysis of the deposited data

How the results depend on the processing

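No paired analysis was possible because each group had 1 library. With reads unscaled the counts of the 8 peaks above and below 1 beyond counting error went from 1 and 3 to 4 and 0, scaled to contig peaks to 4 and 0, and to these without the strongest to 2 and 0. Over the 99 list peaks they went from 6 and 8 to 71 and 0, 56 and 0, and 26 and 0. The TXNRD1 fold turned from 0.518 to 1.11 unscaled and 1.01 scaled to contig peaks, and that of NCOA4 from 0.509 to 1.09 unscaled. These shifts follow from the scaling, which moves every log2 fold by 1.10, 0.96 or 0.54. Unscaled, the interval lay above 1 at 71.1% of all listed peaks. Shares over all listed peaks are not given for the contig scalings or the settings below. Nothing about these genes in particular is read from such counts. Centring within deciles of signal gave 5 lower list peaks, and the cause was not tested. A 99% interval left 2 lower list peaks, and NCOA4 was no longer lower. An added dispersion of 0.04 widened intervals, so that the KEAP1 promoter and NCOA4 included 1, leaving 0 higher and 2 lower of the 8 peaks and 3 higher and 2 lower of the 99. Promoter-class peaks alone, which are fewer, left 1 higher and 1 lower of 4 member peaks and 2 higher and 6 lower of 62 list peaks. Counts by position in place of gene name, chosen after seeing the data, were 1 and 3, with the FTH1 peak in and the upstream KEAP1 peak out. Depth limits SCD most, with 6 reads in Mut4.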
